A study of Homo sapiens with 8 samples.

Results

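The genes described here are 39 genes of the ATF4 pathway, the unfolded protein response and tRNA charging. They were listed by symbol: ATF4, its partner factors, the stress sensors, ATF4-dependent effectors, amino acid and endoplasmic reticulum (ER) genes, and 12 cytosolic tRNA synthetases. Every one of the 39 had a probe set that carries its symbol alone, out of 18244 such genes on the array, and 38 passed a filter on low signals that left 11946 genes tested. ERN1 was the exception. Their mRNA levels were read on 8 Affymetrix 3' expression arrays, 4 groups of 2, in the established melanoma line SK-MEL-5, which is of human origin. In the drug experiment, cells received THZ1, a small molecule that binds the transcriptional kinase CDK7 covalently, at 250 nM for 6 h in 25 uM DMSO, and controls received 25 uM DMSO alone. In the siRNA experiment, cells were transfected with siRNA against MITF, the master factor of the melanocyte lineage (siMITF), or with a non-targeting siRNA (siCtrl). All groups shared the cell line and its growth in DMEM with serum. The labels give neither the time of DMSO exposure nor that of harvest after transfection, and no siRNA sequence. They also leave unsaid whether replicate arrays stem from independent cultures; the p-values therefore cover the spread between these arrays, which may be technical. The series' title and design concern what CDK7 inhibition and loss of MITF each do to expression in this line.

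ATF4 is the transcription factor at the centre of the integrated stress response. The kinases PERK (EIF2AK3), activated by misfolded protein in the ER, and GCN2 (EIF2AK4), activated by amino acid shortage, phosphorylate the initiation factor eIF2, which slows general translation while the ATF4 mRNA is translated more; ATF4 then drives genes that make and import amino acids and charge tRNAs. The ER has further sensors, IRE1 (ERN1), which splices the XBP1 mRNA, and ATF6, which is released from the membrane by proteolysis. Phosphorylation, translation, splicing and proteolysis are not read by an array of mRNA levels.

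Promoters of these genes are known for elements bound by ATF4 with C/EBP partners and by ATF6 and XBP1, so the promoter letters are given before the values. RefSeq promoter windows (GRCh38.p14, 250 bases before to 50 after the start) matched 34 of the 39 genes; LARS1, PSPH, SHMT2, SLC7A11 and YARS1 had no entry. The core of the C/EBP-ATF response element, searched as TGATGNAA on both strands, was found in 12 of 34 windows (35.3%), compared with 3.67% of 27305 windows of all genes. It lay in ATF3, CHAC1, PPP1R15B, ASNS, SLC3A2, HERPUD1 and 6 of the 10 synthetases with an entry: AARS1, CARS1, IARS1, MARS1, NARS1 and TARS1. The ER stress response element was searched only as CCAAT and CCACG at the spacing shown in capitals for XBP1 below. Other forms of the element were not searched, so a window without this match may hold one. This form was found in 2 of 34 (5.88%), XBP1 and CALR, compared with 0.0806% of all windows. The unfolded protein response element core, TGACGTGN, was found in none of the 34 (1.99% of all), and the M-box core that MITF is known to bind, TCATGTGN, in 1 (2.94%), AARS1, compared with 2.98% of all. Other letters that MITF may bind were not searched, so a window without the M-box core may hold a site for it. All of the above are matches of letters, not measured binding, and none of the searched motifs overlapped another in these windows. The following windows belong to the 5 genes with one of the first 2 elements whose changes had the lowest adjusted p relative to the median gene. Each reads 5′ to 3′ on the gene's strand, with the match in capitals.
PPP1R15B: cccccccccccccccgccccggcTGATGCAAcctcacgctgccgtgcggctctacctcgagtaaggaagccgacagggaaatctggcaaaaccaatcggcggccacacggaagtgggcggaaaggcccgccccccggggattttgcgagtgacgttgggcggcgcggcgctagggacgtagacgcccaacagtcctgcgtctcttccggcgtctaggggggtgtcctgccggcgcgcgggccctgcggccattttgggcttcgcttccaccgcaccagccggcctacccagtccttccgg
XBP1: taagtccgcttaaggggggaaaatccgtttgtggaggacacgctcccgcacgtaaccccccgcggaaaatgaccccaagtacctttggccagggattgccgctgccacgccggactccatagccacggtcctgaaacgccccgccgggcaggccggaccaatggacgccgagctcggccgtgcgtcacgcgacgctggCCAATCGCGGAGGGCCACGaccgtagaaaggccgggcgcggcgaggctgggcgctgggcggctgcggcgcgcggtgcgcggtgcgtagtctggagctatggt
SLC3A2: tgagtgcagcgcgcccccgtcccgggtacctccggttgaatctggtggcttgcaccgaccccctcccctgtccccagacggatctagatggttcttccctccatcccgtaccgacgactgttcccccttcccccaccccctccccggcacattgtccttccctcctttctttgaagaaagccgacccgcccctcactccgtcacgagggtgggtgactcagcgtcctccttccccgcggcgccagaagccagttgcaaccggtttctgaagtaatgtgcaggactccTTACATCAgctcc
CHAC1: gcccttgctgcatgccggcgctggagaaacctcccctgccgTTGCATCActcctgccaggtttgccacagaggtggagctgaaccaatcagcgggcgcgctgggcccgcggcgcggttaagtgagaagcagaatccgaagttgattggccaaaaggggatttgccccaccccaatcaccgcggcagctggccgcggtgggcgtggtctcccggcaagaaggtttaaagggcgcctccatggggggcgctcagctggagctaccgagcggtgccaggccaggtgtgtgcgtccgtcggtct
HERPUD1: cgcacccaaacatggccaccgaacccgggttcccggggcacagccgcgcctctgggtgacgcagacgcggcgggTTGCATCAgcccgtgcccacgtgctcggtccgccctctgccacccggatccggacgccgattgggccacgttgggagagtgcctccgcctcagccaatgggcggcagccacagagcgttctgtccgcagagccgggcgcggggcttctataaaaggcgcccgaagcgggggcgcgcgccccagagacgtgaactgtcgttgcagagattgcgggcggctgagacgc
The PPP1R15B window is chr1:204411768-204412067 on the minus strand, and the core in it begins 227 bases before the start. XBP1, chr22:28800520-28800819 on the minus strand, has the ER stress response element from 52 to 34 bases before its start. In SLC3A2, chr11:62881449-62881748 on the plus strand, the core is read on the opposite strand and lies after the start, at bases 38 to 45. CHAC1, chr15:40953221-40953520, and HERPUD1, chr16:56931892-56932191, both on the plus strand, also hold the core on the opposite strand, 209 to 202 and 176 to 169 bases before their starts.

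Deposited signals were normalized to cell number according to the series' design text, and a change on that scale is called per cell here. The median signal of an array was 61.3 and 76.1 with DMSO, 51.1 and 67.6 with THZ1, 51.1 and 59.3 with siCtrl, and 40.1 and 32.5 with siMITF. The median of 42 ERCC spike-in probe sets was 826 to 886 on the drug arrays and 407 to 437 on the siRNA arrays, so the 2 experiments appear to have been scaled apart and no level is compared between them. Per cell, the median tested gene changed by -0.16 on the log2 scale with THZ1 and by -0.63 with siMITF. A second scale, relative to the median gene, shifts each array by the median deviation of its genes, which leaves the median gene at 0.037 and 0.0014. In bulk RNA, fewer cells of a kind and less RNA per cell cannot be told apart. MITF itself read 3436 and 3936 with siCtrl and 1747 and 1168 with siMITF, 2.56-fold lower per cell (adjusted p = 1.62e-06). CDK7, whose protein and not mRNA is the target of THZ1, read 395 and 493 with DMSO and 251 and 323 with THZ1 (log2 change per cell -0.60, adjusted p = 0.105; relative -0.41, adjusted p = 0.00148). All 6 melanocyte markers examined were above the filter, and 0 of 3 keratinocyte and 0 of 3 leukocyte markers were. Of 4 fibroblast markers 2 were above it, DCN and LUM, and their part in the results was not tested; the summed signal of the 4 was 2299 and 2752 with DMSO, 2587 and 3348 with THZ1, 1473 and 1787 with siCtrl, and 917 and 697 with siMITF, with COL1A1 and COL3A1 at 12.8 to 46.2 on every array.

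Per cell, 6 of the 38 tested members fell with THZ1 and 0 rose, where 10.0% of all tested genes were lower and 0.0753% higher at an adjusted p under 0.05 (limma, as in every test here). With siMITF, 33 members were lower and 0 higher per cell, where 63.4% of all genes were lower and 0.326% higher. On the relative scale, 9 members were lower and 8 higher with THZ1, beside 21.1% and 17.7% of all genes. With siMITF 13 were lower and 3 higher, beside 24.7% and 19.5%. The members' median relative change was 0.02 with THZ1 and -0.18 with siMITF, compared with 0.04 and 0.00 for all tested genes. The description that follows goes by role. With quantile normalization in place of the median shift, the relative split was 11 lower and 2 higher with THZ1, and 6 lower and 7 higher with siMITF; without the filter on low signals it was 9 and 0 with THZ1 and 24 and 1 with siMITF. The per-cell fit assigned every gene the same SE (0.245), which makes its p-values too small: with each gene's own variance 0 members passed in either comparison (lowest adjusted p 0.281 with THZ1 and 0.0893 with siMITF; 5 and 24 members at an unadjusted p under 0.05). Leaving out the second DMSO or the first THZ1 array left 2 members per cell with THZ1, and leaving out the second siCtrl or the second siMITF array left 7 and 8 with siMITF. The 17 relative calls with THZ1 became 10 without the first DMSO array, 11 without the second and 9 without the second THZ1 array, and the 16 with siMITF became 10 without the second siMITF array.

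**Figure D1:**
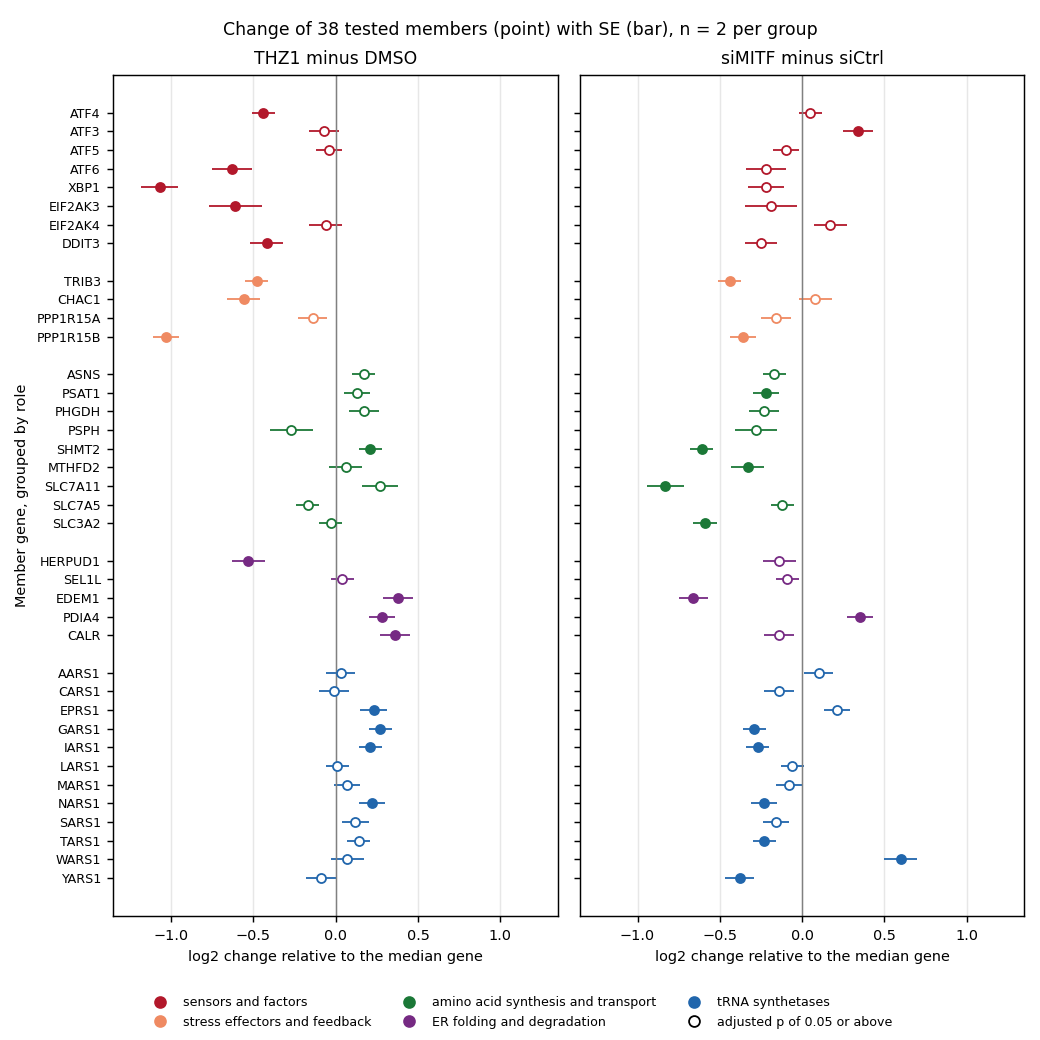
Log2 change relative to the median gene of the 38 tested members, THZ1 minus DMSO (left) and siMITF minus siCtrl (right), coloured by role; bars are SE, n = 2 arrays per group, and open points did not pass the test. With THZ1 the sensors, factors and effectors lie to the left of 0, from -1.07 to -0.04, while the synthetases lie between -0.09 and 0.27.

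Of the 12 tested sensors, transcription factors, effectors and feedback genes of the pathway, 8 were lower with THZ1 on the relative scale and 0 higher. Of all genes 21.1% were lower and 17.7% higher. The median of the 12 was -0.46. The count was 5 to 8 lower and 0 higher in every alternative setting, quantile normalization included. Per cell 5 of the 12 were lower, beside 10.0% of all genes, and 0 of the 12 with each gene's own variance. XBP1, PPP1R15B, ATF6, EIF2AK3, CHAC1, TRIB3, ATF4 and DDIT3 made up the 8. ATF3, ATF5, EIF2AK4 and PPP1R15A were the other four, with changes of -0.14 to -0.04.

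XBP1, the transcription factor that the IRE1 branch activates and that raises chaperone and secretory genes, read 982 and 1185 with DMSO and 327 and 584 with THZ1. Both treated arrays were far below both controls. The fall was 2.41-fold per cell (adjusted p = 2.00e-05) and -1.07 ± 0.11 (SE) on the relative log2 scale (adjusted p = 8.46e-05), the largest among the 38 tested members on that scale. PPP1R15B, the constitutive subunit that directs a phosphatase to eIF2 and so opposes the stress kinases, read 447 and 597 with DMSO and 186 and 237 with THZ1. Its groups were as clearly apart, with a relative change of -1.03 ± 0.08 (adjusted p = 1.08e-05) and a per-cell fall of 2.35-fold (adjusted p = 3.69e-05); its other probe sets above the filter gave -0.58 and -0.14. PPP1R15A (GADD34), the stress-inducible counterpart of PPP1R15B, read 150 and 220 with DMSO and 125 and 157 with THZ1. These groups overlapped, and the relative change was -0.14 ± 0.09 (adjusted p = 0.244).

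ATF4 read 2721 and 3301 with DMSO and 1676 and 2193 with THZ1. The treated arrays were both lower, a relative change of -0.44 ± 0.07 (adjusted p = 7.95e-04), while the per-cell change of -0.64 did not pass (adjusted p = 0.0769). Its probe set is of a design that can detect related sequences, as are those of 5 other members, EIF2AK4, PPP1R15A, ASNS, PSPH and MARS1. A further 6 members, EIF2AK3, DDIT3, PSAT1, SLC7A11, TARS1 and YARS1, have probe sets whose name marks probes shared between transcripts. Among the effectors downstream of ATF4, TRIB3, a pseudokinase that restrains the ATF4 response, read 602 and 804 with DMSO and 367 and 500 with THZ1. It did not overlap either (relative change -0.48 ± 0.07, adjusted p = 6.18e-04). CHAC1, an enzyme that degrades glutathione, read 130 and 148 with DMSO and 65.4 and 85.8 with THZ1. That is a relative change of -0.56 ± 0.10 (adjusted p = 0.00178), with 1 further probe set at -0.37. DDIT3 (CHOP), the factor linked to cell death after lasting ER stress, read 85.9 and 102 with DMSO and 45.7 and 66.4 with THZ1. The arrays were separate, with a relative change of -0.42 ± 0.10 (adjusted p = 0.00959) and a second probe set at -0.67, but the call was lost without the first DMSO array (adjusted p = 0.0589).

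Calls for the remaining sensors were less secure. EIF2AK3 (PERK) read 570 and 467 with DMSO and 253 and 325 with THZ1, apart on all 4 arrays, with a relative change of -0.61 ± 0.16 (adjusted p = 0.013). Its adjusted p was 0.0734 without the first DMSO array, 0.0621 without the second THZ1 array and 0.0509 with quantile normalization, and its other probe sets gave -0.34 and -0.26. ATF6 read 405 and 432 with DMSO and 170 and 303 with THZ1, a relative change of -0.63 ± 0.12 (adjusted p = 0.00285). Its other 2 probe sets above the filter moved the opposite way, by 0.25 and 0.27, and the mean of its probe sets changed by -0.07 (adjusted p = 0.552), so the direction for ATF6 depends on the probe set. EIF2AK4 (GCN2) read 258 and 340 with DMSO and 197 and 303 with THZ1, overlapping groups with a relative change of -0.06 ± 0.10 (adjusted p = 0.65). ERN1 (IRE1), below the filter, read 38.3 and 45.6 with DMSO, 43.5 and 45.3 with THZ1, 29.6 and 32.2 with siCtrl, and 24.8 and 17.7 with siMITF, and was not tested. ATF3 read 60.1 and 73.0 with DMSO and 46.8 and 58.2 with THZ1, and ATF5 157 and 190 against 128 and 161; neither stress factor passed (relative changes -0.07 ± 0.09 and -0.04 ± 0.08).

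**Figure D2:**
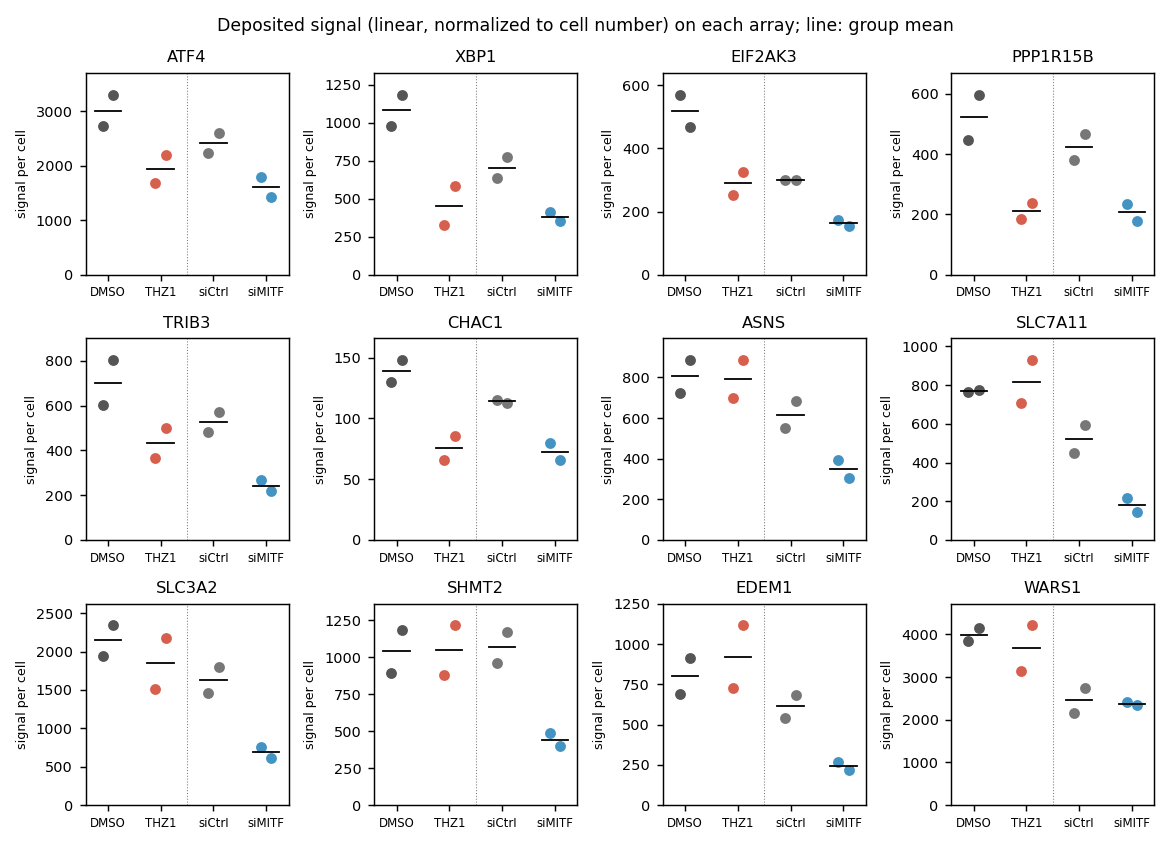
Deposited signal per cell (linear, from 0) of 12 members on each of the 8 arrays; points are arrays and lines the means of 2. ATF4, XBP1, EIF2AK3, PPP1R15B, TRIB3 and CHAC1 are lower on both THZ1 arrays than on both DMSO arrays, whereas ASNS, SLC7A11, SLC3A2, SHMT2, EDEM1 and WARS1 overlap; the dotted line parts 2 experiments whose levels are not comparable.

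In the siRNA experiment 2 of the same 12 genes fell relative to the median gene, TRIB3 and PPP1R15B, and ATF3 rose, with a median of -0.18. Over the alternative settings the relative count was 2 to 7 lower and 0 to 2 higher. Of all genes, 24.7% were lower and 19.5% higher on that scale in the main setting. Per cell 10 of the 12 were lower with siMITF, beside the 63.4% given above. TRIB3 read 483 and 571 with siCtrl and 267 and 217 with siMITF. The siMITF arrays were both far lower, with a relative change of -0.44 ± 0.07 (adjusted p = 9.46e-04). PPP1R15B read 381 and 468 with siCtrl and 236 and 177 with siMITF, a relative change of -0.36 ± 0.08 (adjusted p = 0.00426). That change was -0.15 with quantile normalization (adjusted p = 0.109) and -0.16 with the mean of its probe sets (adjusted p = 0.0711). The other PPP1R15B probe sets above the filter gave -0.18 and -0.01. ATF4 read 2232 and 2604 with siCtrl and 1798 and 1434 with siMITF, lower per cell (log2 change -0.58, adjusted p = 0.0314). Its relative change was 0.05 ± 0.07 (adjusted p = 0.566), which does not set ATF4 apart from the median gene beyond that error.

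XBP1 read 636 and 773 with siCtrl and 412 and 353 with siMITF, lower on both arrays per cell (-0.85, adjusted p = 0.00205) with a relative change of -0.22 ± 0.11 that did not pass (adjusted p = 0.147). CHAC1 read 115 and 113 against 79.6 and 65.8, with a relative change of 0.08 ± 0.10 (adjusted p = 0.546). DDIT3 read 68.7 and 102 against 38.6 and 37.8, with a relative change of -0.25 ± 0.10 (adjusted p = 0.0735). All 3 genes were thus lower per cell on both siMITF arrays without a relative call. ATF3 read 61.4 and 62.1 with siCtrl and 54.5 and 41.1 with siMITF, which is lower in signal but 0.34 ± 0.09 higher relative to the median gene (adjusted p = 0.0153). Its 2 other probe sets gave -0.15 and 0.06, and the call was lost without the second siCtrl array (adjusted p = 0.127), the first siMITF array (0.0725) or the second (0.064).

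Among the 9 genes that make and import amino acids, which include the best known ATF4 targets, 0 were lower and 1 (11.1%) higher with THZ1 on the relative scale, beside 21.1% and 17.7% of all genes. Their median was 0.13, and 0 passed per cell; with quantile normalization 3 were lower and 0 higher. ASNS, asparagine synthetase, read 724 and 886 with DMSO and 698 and 884 with THZ1. The groups overlapped almost fully, a per-cell log2 change of -0.03 (adjusted p = 0.995) and a relative change of 0.17 ± 0.07 (adjusted p = 0.0762). SHMT2, the mitochondrial enzyme that takes a one-carbon unit from serine, read 894 and 1181 against 881 and 1215, and its relative call of 0.21 ± 0.07 (adjusted p = 0.0402) was lost whichever of the 8 arrays was left out (adjusted p 0.0504 to 0.198). SLC7A11, the cystine-glutamate exchanger, read 767 and 774 against 707 and 930, also overlapping (relative change 0.27 ± 0.11, adjusted p = 0.0829). PSAT1, PHGDH, PSPH, MTHFD2, SLC7A5 and SLC3A2 had relative changes from -0.27 to 0.17, none of which passed. Further probe sets of PSAT1, PSPH, MTHFD2 and SLC7A5 included values of the opposite sign.

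With siMITF the same 9 genes were all lower per cell, where 63.4% of all genes were lower. On the relative scale 5 of them were lower and 0 higher, beside 24.7% and 19.5% of all genes. Their median was -0.28. The relative count of lower genes was 3 to 8 over the alternatives; it was 3 with quantile normalization and 3 without the first siCtrl or the second siMITF array. SLC7A11 read 448 and 593 with siCtrl and 217 and 145 with siMITF. The fall on both arrays was 2.75-fold per cell (adjusted p = 2.27e-07), or -0.83 ± 0.11 on the relative log2 scale (adjusted p = 3.83e-04), the largest of the tested members in this comparison. SHMT2 read 963 and 1172 with siCtrl and 486 and 397 with siMITF. Its arrays were as far apart, with a relative change of -0.61 ± 0.07 (adjusted p = 1.53e-04). SLC3A2, the heavy chain that carries SLC7A11 and SLC7A5 to the membrane, read 1466 and 1794 with siCtrl and 756 and 618 with siMITF. Its relative change was -0.59 ± 0.07 (adjusted p = 1.92e-04), while that of its light chain SLC7A5, an importer of large neutral amino acids, was -0.12 ± 0.07 (adjusted p = 0.211). The other SLC7A5 probe set above the filter was at -0.40, and the 6 further ones of SLC3A2 were at -0.85 to -0.52. The size of the SLC7A5 change thus depends on the probe set.

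Weaker calls in this group were MTHFD2, a mitochondrial folate enzyme, at -0.33 ± 0.10 (adjusted p = 0.0262), and PSAT1, of serine synthesis, at -0.22 ± 0.08 (adjusted p = 0.0452). MTHFD2 lost its call without the first siCtrl array (adjusted p = 0.123) or the second siMITF array (0.214), and PSAT1 without any one of 6 arrays (0.0615 to 0.206). The other serine synthesis enzymes, PHGDH at -0.23 ± 0.09 and PSPH at -0.28 ± 0.13, did not pass (adjusted p = 0.0545 and 0.114), and neither did ASNS at -0.17 ± 0.07 (adjusted p = 0.0764). The other PSPH probe set above the filter was at -0.74. SLC7A11, SHMT2 and SLC3A2 kept their relative calls with siMITF in each of the 17 alternative settings.

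Of the 5 genes of ER folding and degradation, 1 was lower and 3 were higher with THZ1 on the relative scale. That stands beside 21.1% and 17.7% of all genes. Without the filter on low signals 0 of the 5 were higher. HERPUD1, which assembles the machinery that returns misfolded proteins to the cytosol, read 438 and 486 with DMSO and 227 and 327 with THZ1. It was lower on both treated arrays, with a relative change of -0.53 ± 0.10 (adjusted p = 0.00242) and further probe sets at -0.71 and -0.66. EDEM1, a lectin that marks misfolded glycoproteins for degradation, read 691 and 916 with DMSO and 726 and 1118 with THZ1. These signals overlapped per cell, but relative to the median gene EDEM1 was higher by 0.38 ± 0.09 (adjusted p = 0.00723), with 4 further probe sets at 0.59 to 0.76; the call was lost without the first DMSO array (0.0507) or the second THZ1 array (0.0541). PDIA4, a disulfide isomerase, and CALR, the calcium-binding chaperone calreticulin, were likewise higher relative to the median gene, by 0.28 ± 0.08 (adjusted p = 0.0158) and 0.36 ± 0.09 (adjusted p = 0.0105). Per cell neither passed, PDIA4 was at 0.03 with quantile normalization, and PDIA4 lost its call without the second DMSO (0.114) or second THZ1 array (0.0771) and CALR without the first DMSO (0.0767) or first THZ1 array (0.0647). SEL1L, the scaffold of the HRD1 ubiquitin ligase, changed by 0.04 ± 0.07 (adjusted p = 0.731).

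With siMITF, EDEM1 read 544 and 686 in the controls and 267 and 215 after knockdown. It was the lowest of the ER members, at 2.45-fold below the controls per cell (adjusted p = 4.23e-06) and with a relative change of -0.66 ± 0.09 (adjusted p = 2.83e-04), though its further probe sets gave smaller values of -0.34 to -0.10. PDIA4 read 2254 and 2725 against 2233 and 1850, below the controls in signal but 0.35 ± 0.08 higher relative to the median gene (adjusted p = 0.00452). CALR, HERPUD1 and SEL1L had relative changes of -0.14 ± 0.09, -0.14 ± 0.10 and -0.09 ± 0.07, none past the test.

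The 12 cytosolic tRNA synthetases, which attach amino acids to their tRNAs, had relative changes between -0.09 and 0.27 with THZ1. Per cell 0 of 12 passed, with changes from -0.29 to 0.07. On the relative scale 4 were higher and 0 lower, beside 17.7% and 21.1% of all genes. The 4 were GARS1 at 0.27 ± 0.07 (adjusted p = 0.0137), EPRS1 at 0.23 ± 0.08 (0.0462), NARS1 at 0.22 ± 0.08 (0.0459) and IARS1 at 0.21 ± 0.07 (0.0366). With quantile normalization or without the filter 0 of the 12 passed, and 0 passed without the second DMSO or the second THZ1 array. GARS1, which charges glycine tRNA, read 3391 and 4160 with DMSO and 3403 and 4550 with THZ1, overlapping signals; without either DMSO array or the second THZ1 array its adjusted p was 0.0552 to 0.0579. EPRS1, IARS1 and NARS1 each lost their calls without any one of 6 or 7 arrays, with adjusted p up to 0.175, 0.135 and 0.279.

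With siMITF, 10 of the 12 were lower per cell, beside 63.4% of all genes. On the relative scale 5 were lower and 1 higher, beside 24.7% and 19.5% of all genes. With quantile normalization that split turned to 0 lower and 4 higher. YARS1 (tyrosine) read 569 and 759 with siCtrl and 363 and 276 with siMITF. The fall relative to the median gene was -0.38 ± 0.09 (adjusted p = 0.00625). GARS1, IARS1, NARS1 and TARS1 were at -0.29 to -0.23 with adjusted p of 0.00779 to 0.0372. Without the second siCtrl array 0 of the 12 were lower, without the second siMITF array 1, and without the first siCtrl or first siMITF array 3. WARS1, the tryptophan enzyme, which interferons are known to induce, stood apart from the other eleven. It read 2165 and 2751 with siCtrl and 2411 and 2349 with siMITF, overlapping groups with a per-cell change of -0.04 (adjusted p = 0.891). Relative to the median gene it was higher by 0.60 ± 0.10 (adjusted p = 0.00109), with further probe sets at 0.23 and 0.74, and it kept this call in each of the 17 alternative settings. Of the rest, EPRS1 and AARS1 had relative changes of 0.21 ± 0.08 and 0.10 ± 0.09 and CARS1, LARS1, MARS1 and SARS1 of -0.16 to -0.06, none past the test.

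The calls were also counted by the presence of the promoter core, beside the 21.1% lower and 17.7% higher of all genes with THZ1 and 24.7% and 19.5% with siMITF. Of the 12 members with TGATGNAA, 3 were lower and 2 higher with THZ1 on the relative scale, and of 21 tested members with a window lacking it 6 were lower and 5 higher. With siMITF 5 of 12 were lower and 1 higher with the core, and 5 of 21 were lower and 2 higher without it, and both sets had a median of -0.16. Of the windows printed above, PPP1R15B, CHAC1 and HERPUD1 hold the core in genes that fell with THZ1, whereas SLC3A2 holds it in a gene whose change with THZ1 was -0.03 ± 0.07 (adjusted p = 0.755).

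Whether the 2 perturbations changed a member by different amounts was tested directly as the THZ1 change minus the siMITF change, relative to the median gene. Of 38 members 7 differed downward and 12 upward, beside 20.2% and 21.4% of all genes; with quantile normalization the split was 13 and 4. ATF4 was lower with THZ1 than with siMITF, each against its own control (difference -0.49 ± 0.10, adjusted p = 0.00264), as were XBP1 (-0.85 ± 0.16, 0.00222), PPP1R15B (-0.67 ± 0.11, 9.38e-04) and CHAC1 (-0.64 ± 0.14, 0.00478). TRIB3, lower in both, gave a difference of -0.04 ± 0.10 (adjusted p = 0.781). In the opposite direction SLC7A11 (1.10 ± 0.16, adjusted p = 5.85e-04), EDEM1 (1.04 ± 0.12, 1.94e-04), SHMT2 (0.82 ± 0.10, 2.38e-04) and SLC3A2 (0.56 ± 0.10, 0.00179) were lower with siMITF than with THZ1. The SLC3A2 difference was 0.18 with quantile normalization (adjusted p = 0.135). Per cell 0 of the 38 members differed downward and 5 upward, beside 0.946% and 9.84% of all genes, whose median difference was 0.44. The per-cell differences of ATF4, XBP1, PPP1R15B and CHAC1 kept their sign but did not pass (-0.06, -0.42, -0.24 and -0.21, adjusted p 0.397 to 0.914). Those of SLC7A11 (1.53 ± 0.35, adjusted p = 0.00162), EDEM1 (1.47 ± 0.35, 0.00252), SHMT2 (1.25 ± 0.35, 0.0111), GARS1 (0.99 ± 0.35, 0.0443) and SLC3A2 (adjusted p = 0.0437) did pass. With each gene's own variance 0 members passed for the per-cell difference (lowest adjusted p 0.357; 6 members at an unadjusted p under 0.05).

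Among the synthetases, the differences of GARS1 (0.56 ± 0.10), IARS1 (0.47 ± 0.10), NARS1 (0.45 ± 0.11) and TARS1 (0.37 ± 0.10) passed but were 0.02 to 0.20 and did not pass with quantile normalization. WARS1 differed the other way, by -0.53 ± 0.14 (adjusted p = 0.0118). CALR (0.50 ± 0.12, adjusted p = 0.00967), PHGDH (0.40 ± 0.12, 0.0259), PSAT1 (0.35 ± 0.11, 0.0295) and ASNS (0.34 ± 0.10, 0.0195) were also among the 12, and ATF3 (-0.41 ± 0.13, 0.0317) and HERPUD1 (-0.39 ± 0.14, 0.0456) among the 7. The calls of the final 5 genes each depended on single arrays: the adjusted p rose to 0.0917 for PHGDH, 0.105 for PSAT1, 0.0745 for ASNS, 0.113 for ATF3 and 0.157 for HERPUD1 when 1 array was left out. With quantile normalization the difference was 0.21 for CALR (adjusted p = 0.184) and 0.01 for PSAT1 (0.957) and ASNS (0.933). With each gene's own variance CALR and WARS1 did not pass (adjusted p = 0.0571 and 0.0794). The differences of XBP1, PPP1R15B, SHMT2, SLC7A11 and EDEM1 passed in each of the 16 alternatives run for this comparison. The drug was given for 6 h and the time after transfection is not given, so time and agent cannot be told apart here.

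**Figure D3:**
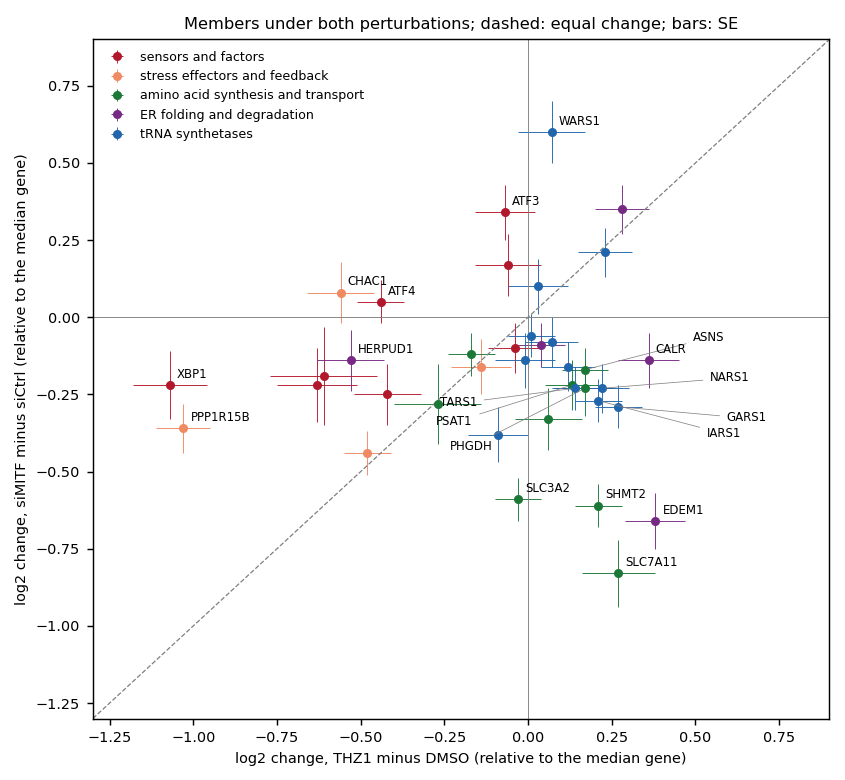
Log2 change relative to the median gene with THZ1 (horizontal) against that with siMITF (vertical) for the 38 tested members; bars are SE, the dashed line marks equal change, and names mark members whose difference passed the test. XBP1 and PPP1R15B lie far to the left and SLC7A11, EDEM1, SHMT2 and SLC3A2 low in the plot, while WARS1 lies highest.

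Other genes of the same pathway were taken from lists of known members, and each share is to be read beside all tested genes, of which 21.1% were lower and 17.7% higher with THZ1 and 24.7% and 19.5% with siMITF. Of 19 tested further ATF4 targets, 6 (31.6%) were lower and 4 (21.1%) higher with THZ1 on the relative scale (median -0.01), and 3 (15.8%) lower and 6 (31.6%) higher with siMITF (median 0.12). CEBPB, a dimer partner of ATF4, read 767 and 1049 with DMSO and 354 and 493 with THZ1. Its relative change was -0.87 ± 0.08 (adjusted p = 2.72e-05), the lowest adjusted p in this list, and with siMITF it was -0.35 (adjusted p = 0.00494). SLC38A2, an importer of neutral amino acids, and CEBPG, another partner of ATF4, were also lower with THZ1, by -0.63 (adjusted p = 9.88e-05) and -0.30 (adjusted p = 0.00675). DDIT4, an inhibitor of mTORC1, read 456 and 574 with DMSO, 222 and 359 with THZ1, 370 and 507 with siCtrl, and 790 and 693 with siMITF. It thus fell with THZ1 (relative change -0.62, adjusted p = 0.00103) and rose with siMITF on both scales (relative change 1.38, adjusted p = 1.91e-05; per cell 0.75, adjusted p = 0.00615). SESN2, which also restrains mTORC1, read 164 and 216 with siCtrl and 286 and 215 with siMITF, higher on the relative scale (adjusted p = 2.27e-05) but not per cell (0.37, adjusted p = 0.16). SLC1A4, a transporter of serine and alanine, was higher by 0.38 relative to the median gene and changed by -0.25 per cell, though 3 of its 5 other probe sets went the opposite way on the relative scale (-0.14 to 0.34 over the 5). EIF4EBP1, a repressor of cap-dependent translation, was lower by -0.32 relative (adjusted p = 0.0045).

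ER chaperone and degradation genes outside the members showed 2 (6.06%) lower and 14 (42.4%) higher of 33 with THZ1 relative to the median gene (median 0.21), and 1 lower and 0 higher per cell. The 33 also include the transcription factors ATF6B, CREB3 and CREB3L2 and the proteases MBTPS1 and MBTPS2. ATF6B, a relative of ATF6, was higher with THZ1 (0.26, adjusted p = 0.0247). CREB3, CREB3L2, MBTPS1 and MBTPS2 had relative changes of -0.09 to 0.25 with THZ1 that did not pass. ERO1A, the oxidase that supplies disulfides, and SELENOK, an ER selenoprotein, were higher by 0.47 (adjusted p = 0.00167) and 0.45 (adjusted p = 7.74e-04), and P4HB, a protein disulfide isomerase, by 0.33 (adjusted p = 0.00546). EDEM3, a relative of EDEM1, went the other way at -0.54 (adjusted p = 3.28e-04), with other probe sets at -0.26 and 0.07. With siMITF 5 (15.2%) of the 33 were lower and 9 (27.3%) higher on the relative scale; SELENOS was lower at -0.44 (adjusted p = 0.00142), and ERO1B, P4HB and ATF6B were higher at 0.46, 0.40 and 0.34, each of them below 0 per cell (-0.17, -0.23 and -0.30). Direction with siMITF depended on the probe set for 3 of these 4: the other one was at 0.24 for SELENOS and -0.01 for ATF6B, and 1 of 5 for P4HB was at -0.18.

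Of 13 further eIF2 kinases, eIF2 and eIF2B subunits and their cofactors, 7 (53.8%) were lower and 1 (7.69%) higher with siMITF on the relative scale (median -0.23), and 1 (7.69%) lower and 2 (15.4%) higher with THZ1. EIF2S1, the eIF2 subunit that the stress kinases phosphorylate, read 780 and 924 with siCtrl and 386 and 310 with siMITF. Both siMITF arrays lay far below, with a relative change of -0.62 (adjusted p = 1.22e-04), beside -0.61 for EIF2S2 (adjusted p = 2.44e-04), -0.42 for EIF2B1 (adjusted p = 0.00195) and -0.34 for the kinase EIF2AK2 (adjusted p = 0.00601). With THZ1, QRICH1 was lower at -0.69 (adjusted p = 5.00e-04), and EIF2S3 and the kinase EIF2AK1 were higher at 0.33 and 0.30; for EIF2AK1, 3 of 7 other probe sets went the opposite way (-0.34 to 0.39 over the 7).

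Cytosolic synthetase genes outside the members gave 0 lower and 1 (12.5%) higher of 8 with THZ1, QARS1 at 0.32 (adjusted p = 0.00512). With siMITF 3 (37.5%) were lower and 0 higher, FARSA, FARSB and RARS1 at -0.26 to -0.34. The 8 include AIMP1, a scaffold of the synthetase complex and not a synthetase, which passed in neither comparison on the relative scale. Of 16 listed mitochondrial synthetases, each a gene other than those above, 3 (18.8%) were lower and 1 (6.25%) higher with THZ1, and 4 (25%) lower and 3 (18.8%) higher with siMITF. MARS2 (-0.74, adjusted p = 0.00292), HARS2 and PARS2 (both -0.38) were lower with THZ1 and IARS2 was higher (0.38). With siMITF NARS2 (-0.74, adjusted p = 7.70e-05) and RARS2 (-0.28) were lower, and AARS2 (0.47) and PARS2 (0.40) were higher on the relative scale while below 0 per cell (-0.16 and -0.23).

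**Figure D4:**
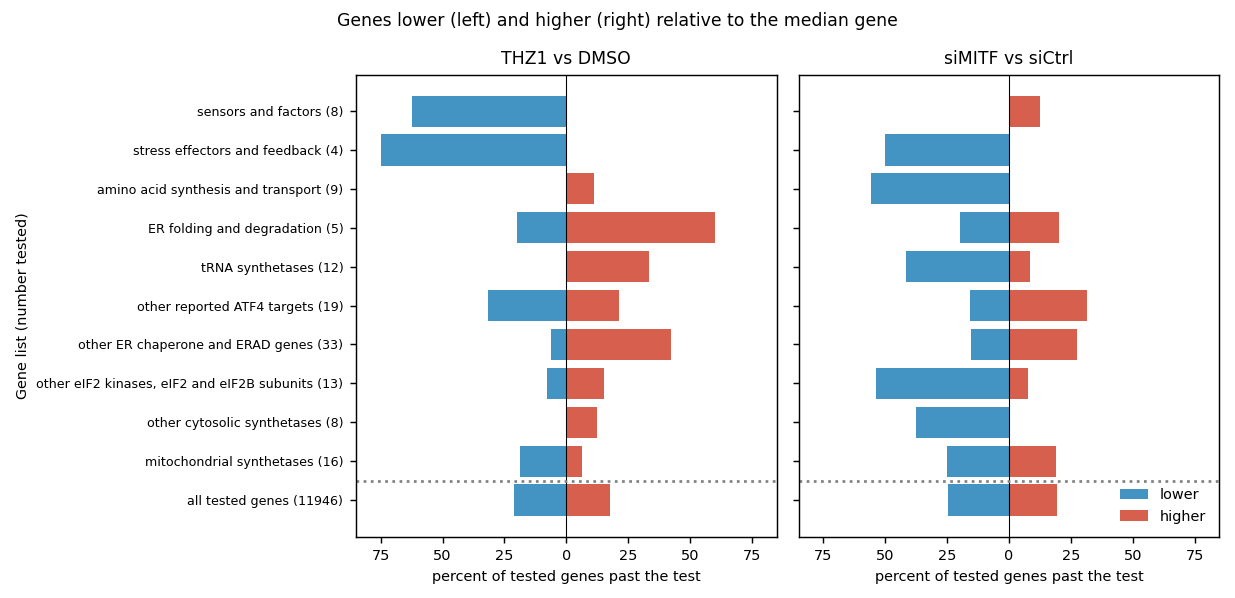
Percent of tested genes past the test relative to the median gene, lower to the left and higher to the right of 0, for the 5 role groups of the members, 5 further lists and all 11946 tested genes, with the number tested in brackets. Among the role groups, those of sensors and effectors have 62.5% and 75% lower with THZ1, and the amino acid genes 55.6% lower with siMITF, beside 21.1% and 24.7% of all genes.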

How the data were processed

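Array signals (intensity, linear scale) were deposited by the authors after normalization to cell number, per the labels' protocols and design text; probe sets were summarised with MAS5, per the submitters' processing notes, with no version given, and how the cell-number step was calculated is not given in the sources used here. Per the labels, 100 ng of RNA with ERCC spike-in was labelled per array. A single gene symbol was assigned to 45284 of 49495 probe sets, several to 1333 and none to 2878; 45214 matched the RefSeq gene table by gene ID. Signals were analysed as log2(value + 16), so a log2 change understates that of dim genes. The brightest probe set stood for a gene, which was tested if its mean log2 signal reached the 40th percentile, a signal of 39.2. The comparisons used limma 3.58.1 (R 4.3.3) and a model of the 4 group means over 8 arrays (4 residual degrees of freedom; prior 5.97 on the relative scale, infinite per cell) and Benjamini-Hochberg adjustment over 11946 genes. The relative fit of THZ1 against DMSO was tested on simulated data. The per-cell fit and the other comparisons were not. The 39 genes, the relative scale and the lists were chosen with earlier results of these data known. Named genes beyond the members are MITF, CDK7 and, per list and comparison, up to 4 genes past the relative test with the lowest adjusted p. The number of arrays limits the precision. Replicate numbers were not used to pair the arrays. Alternatives varied the pseudocount, the filter, the probe set rule, the variance, the arrays, a replicate block and the scaling.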

Additional observations from a re-analysis of the deposited data

How the results depend on the processing

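Members called numbered 6 per cell with THZ1, 33 per cell with siMITF, 17 and 16 relative to the median gene, and 19 for the difference of changes. With each gene's own variance these became 0 and 0 per cell and 12 for the difference. Without the filter they were 9 with THZ1 and 25 with siMITF on the relative scale, and with the mean of a gene's probe sets 26 with siMITF. Leaving out 1 array gave 2 to 9, 7 to 33, 9 to 15, 10 to 19 and 15 to 19 members in that order. The replicate numbers were not taken as pairs. Deviations of arrays with the same number correlated across genes at 0.11 in the drug and -0.18 in the siRNA experiment. That measure cannot see a shift shared by all genes of an array. The median signal was higher on the second array with DMSO (61.3 and 76.1), THZ1 (51.1 and 67.6) and siCtrl (51.1 and 59.3), and lower with siMITF (40.1 and 32.5). Whether the numbers mark pairs therefore cannot be told. A replicate block gave 7, 33, 14, 15 and 18. Crossing the siMITF numbers in the block, chosen after seeing the data, gave 16, 37, 17, 17 and 20.

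Of the comparisons of a member with its main value under another setting, 2717 stayed on the same side of the threshold, 292 lost the call and 100 gained one. In 7 the direction reversed with a call in the main or the other setting. Changes of direction without a call in either setting were counted among the 2717. With quantile normalization NARS1 with THZ1 was at -0.02, PSAT1, SEL1L and LARS1 with siMITF at 0.05, 0.17 and 0.20, and the difference for EPRS1 and LARS1 at -0.30 and -0.31; with the mean of probe sets the difference for SLC7A5 was 0.34. The cause of these shifts was not tested. Of 31 members with a further probe set above the filter, 8 had one of opposite sign with THZ1 and 5 with siMITF, among called members ATF6 and ATF3. The 2 arrays per group limit every value, and for dim genes such as ERN1 signal over background does.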
